A study of Mus musculus with 16 samples.

Results

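The potassium channel family was taken here as every protein-coding gene of the deposited count tables whose symbol starts with Kcn. This rule picked 94 of the 54532 genes in the tables, and 77 of the 94 had enough reads to be tested, among 14783 tested genes in all. The rule used names alone and no measured value. The genes fell into 16 subfamilies by symbol, which cover the voltage-gated channels (Kv1 to Kv4, Kv7 and the ether-a-go-go or EAG group), silent Kv subunits, calcium-activated channels (BK and SK), sodium-activated channels, inward rectifiers (Kir), tandem-pore leak channels (K2P) and auxiliary subunits (Kv beta, KChIP and KCNE).

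The libraries were bulk RNA sequencing of primary hippocampal cells from newborn mice, harvested at day in vitro (DIV) 14, and came in 4 groups of 4 libraries. KOLi and KOVeh were cells of homozygous Shank3Δ11(-/-) mice, which lack exon 11 of Shank3, a scaffold protein of excitatory synapses. WTLi and WTVeh were cells of wild type (WT) mice, and both genotypes had a C56BL/6 background. Li groups were kept in 0.1 mmol/L lithium for 5 days, starting at DIV 9, and Veh groups in the water vehicle. Each preparation pooled 10 to 20 hippocampi, so a library holds neurons and glia of several pups, and the replicate numbers 1 to 4 were taken as experimental batches. Because these are bulk samples, fewer cells of a type and less RNA per cell cannot be told apart.

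Potassium channels let potassium leave the cell and so set the resting potential, end the action potential and limit repetitive firing. Kv channels are tetramers of pore-forming subunits that open on depolarisation, BK and SK channels open on a rise in intracellular calcium, and Kir and K2P channels carry resting and leak currents. Auxiliary subunits alter gating or the number of channels at the membrane. In the hippocampus, Kv1 and Kv7 channels sit mainly on axons, Kv4 channels on dendrites of pyramidal cells, Kv3 channels on fast-firing interneurons, and Kir4.1 on astrocytes.

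Library totals ran from 16123067 to 35188300 counts, and Kcn genes took 0.381% ± 0.0274 of counts in KOLi, 0.399% ± 0.0240 in KOVeh, 0.333% ± 0.0354 in WTLi and 0.336% ± 0.0417 in WTVeh (mean ± SD, n = 4 each). Shank3 itself had 107 ± 35.3 CPM (counts of the gene scaled to a common library size) in KOLi, 108 ± 36.7 in KOVeh, 221 ± 30.2 in WTLi and 219 ± 41.8 in WTVeh. Counts cover the whole gene, so they do not read the deleted exon by itself. The 2 libraries labelled KO replicate 2 had 162 CPM (KOVeh) and 159 CPM (KOLi) of Shank3, the highest of the KO libraries and close to the 169 CPM of WTVeh replicate 2, so results are also given by replicate number and without replicate 2.

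Levels differed widely between members. Per kb of gene length, which allows genes to be compared, tested members ran from 0.109 (Kcnmb1) to 44.8 CPM per kb (Kcnj10) over the 16 libraries, with a median of 4.18. Above 10 CPM per kb stood 22 members, 37 lay between 1 and 10, and 18 tested members lay under 1. The first 5 members by level were Kcnj10 (Kir4.1, the astrocyte inward rectifier) at 44.8, Kcnj4 (Kir2.3) at 43.0, Kcnab2 (the Kv beta2 subunit) at 40.9, Kcnk1 (TWIK1, a leak channel) at 37.2 and Kcnip2 (KChIP2, a partner of Kv4) at 34.1 CPM per kb. Together these 5 made up 32.6% of the summed level per kb of the family, and the first 10 made up 49.3%. Among Kv pore subunits, Kcna1 (Kv1.1) stood at 22.3 CPM per kb.

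**Figure D1:**
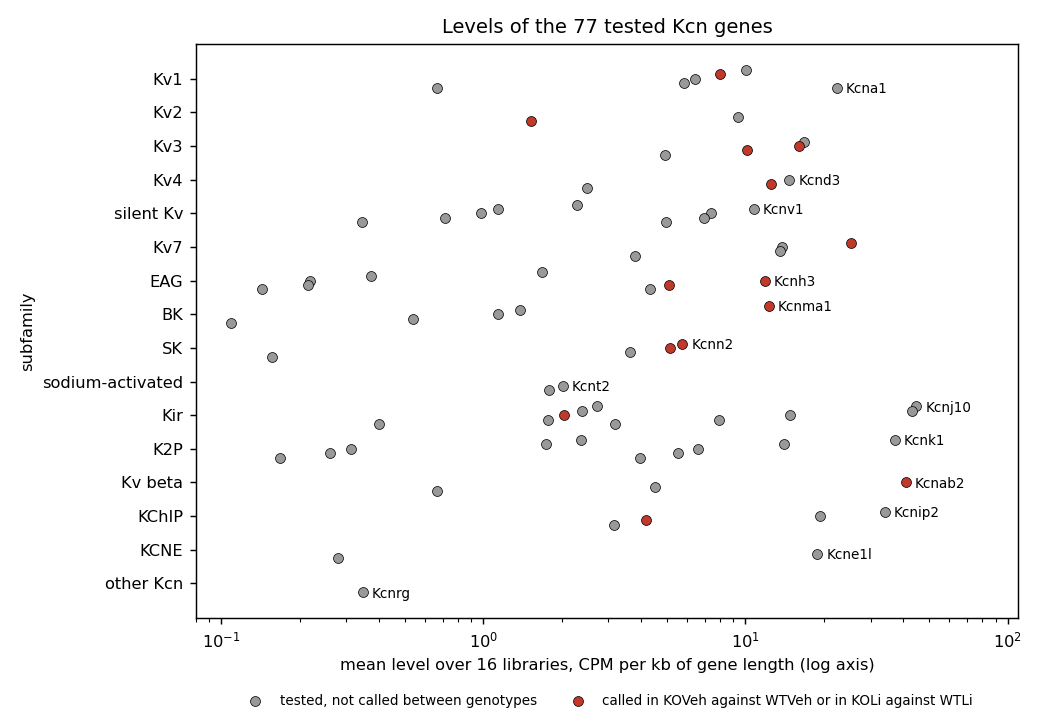
Mean level over the 16 libraries of each tested Kcn gene (x axis, CPM per kb of gene length on a log scale) by subfamily (y axis), 1 point per gene, with the highest gene of most subfamilies named. Kcnj10 stands highest at 44.8 CPM per kb, and the 14 genes called between genotypes (red) lie between 1.52 and 40.9.

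The 17 members that were not tested had few reads. Kcnk18 (TRESK, a channel of sensory neurons) had 0 counts in all 16 libraries. The other untested members were Kcna7, Kcna10, Kcnv2, Kcnq1, Kcnmb3, Kcnj1, Kcnj5, Kcnj8, Kcnj14, Kcnj15, Kcnk7, Kcnk15, Kcnk16, Kcne1, Kcne2 and Kcne3, none above 26 counts in any library. Several of these are known from heart (Kcnq1, Kcne1), kidney (Kcnj1) or mural cells (Kcnj8).

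The effect of the genotype on the family was asked in KOVeh against WTVeh and in KOLi against WTLi. A gene was called where edgeR's quasi-likelihood test, with the replicate number in the model and Benjamini-Hochberg adjustment over all 14783 genes, gave an adjusted p under 0.01 and the fold exceeded 1.2, the thresholds of the study. In KOVeh against WTVeh 11 Kcn genes were called higher and 0 lower, 14.3% of the 77 tested, where 2.08% of all tested genes were called higher and 3.42% lower (5.5% in either direction). In KOLi against WTLi 13 were called higher and 0 lower, 16.9% of the 77, where 2.76% of all genes were called higher and 3.6% lower (6.36% in either direction). With a negative sign, 4 Kcn genes in KOVeh against WTVeh (Kcne1l, Kcnk2, Kcnmb1 and Kcnn4) and 3 in KOLi against WTLi (Kcne1l, Kcnj10 and Kcnk2) had an unadjusted p under 0.05 by edgeR, and DESeq2 called Kcne1l and Kcnk2 lower in KOLi against WTLi. The genes called in either comparison number 14, and they came from 11 of the 16 subfamilies. Kcna2, Kcnb2, Kcnc1, Kcnc4, Kcnd2, Kcnh1, Kcnip1, Kcnma1 and Kcnn1 were among the 10 called in both, Kcnj12 was called by edgeR in KOVeh against WTVeh, and Kcnab2, Kcnh3 and Kcnn2 in KOLi against WTLi. None of these last 4 was shown to differ between treatments, since no Kcn gene had an interaction of genotype and treatment at an unadjusted p under 0.05.

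The shift was small per gene and spread over most of the family. The median log2 fold change of the 77 genes was 0.32 in KOVeh against WTVeh and 0.33 in KOLi against WTLi, where the median of all tested genes was -0.01 and 0.00. In KOVeh against WTVeh 64 of the 77 lay above 0, which is 83.1%, against 48.8% of all genes, and in KOLi against WTLi 60 of the 77 did (77.9%), against 49.4% of all genes. Unadjusted p-values under 0.05 were found for 39 of the 77 (50.6%) in KOVeh against WTVeh, where 34.2% of all genes had one, and for 37 (48.1%) in KOLi against WTLi, where 36.6% of all genes had one. Same-numbered Li and Veh libraries of a genotype may come from 1 preparation, so the comparisons are not independent of each other. By kind of subunit, the 53 other pore-forming subunits had a median of 0.31 in KOVeh against WTVeh, the 9 silent Kv subunits 0.37, the 9 auxiliary subunits 0.33 and the 5 genes of the BK group 0.26, which leaves Kcnrg, a gene without a pore.

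**Figure D2:**
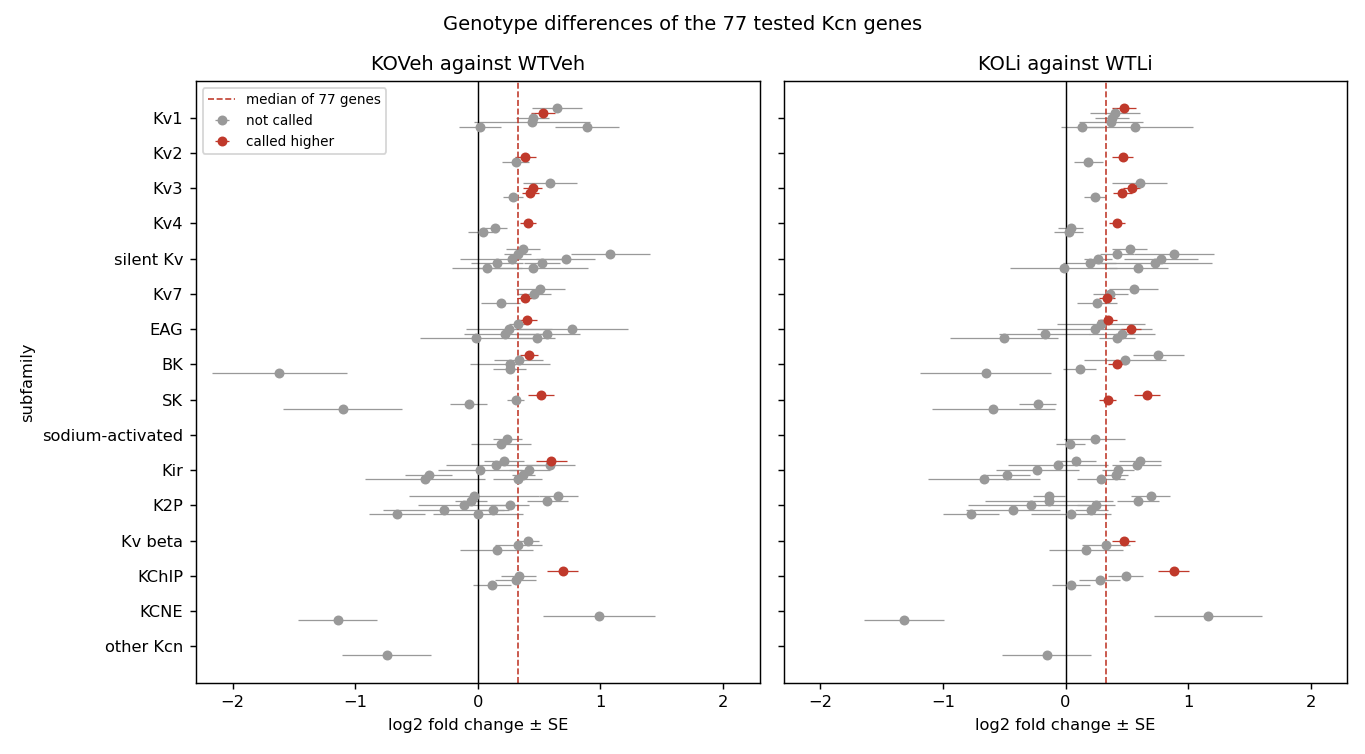
Log2 fold change ± SE (x axis) of each of the 77 tested Kcn genes by subfamily (y axis), with KOVeh against WTVeh on the left and KOLi against WTLi on the right. The 11 and 13 called genes (red) all lie right of 0, and the dashed lines mark the family medians of 0.32 and 0.33.

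Marker lists of neurons had medians above 0 in KOVeh against WTVeh, and those of glia, vessels, meninges and ependyma had medians below 0. Of 12 pan-neuronal markers 2 (Map2, Snap25) were called higher in KOVeh against WTVeh, with a list median of 0.24, and their summed level was 5452 to 7673 CPM in KOVeh and 4886 to 6790 CPM in WTVeh. The list medians were 0.29 for 8 markers of excitatory neurons, 0.39 for 12 of interneurons, -0.26 for 10 of astrocytes, -0.69 for 10 of microglia, -0.32 for 5 tested of oligodendrocyte precursors, -0.89 for 7 tested of oligodendrocytes, -0.85 for 5 tested of endothelium, -0.53 for 5 tested of mural cells, -0.19 for 8 of meningeal fibroblasts and -1.20 for 8 of ependymal cells. By replicate number in KOVeh minus WTVeh, the microglia list had medians of -2.31, 0.22, 0.07 and -0.53. In replicate 2 the endothelial, mural and ependymal lists had 0.04, 0.06 and 0.16, and their other replicates were below 0. The precursor, oligodendrocyte and meningeal lists were below 0 in every replicate. No gene of the microglia, endothelial, mural or ependymal lists was called in either comparison. In KOLi against WTLi the neuron list had a median of 0.28, and 2 of its 12 genes (Snap25, Syt1) were called higher. Among the other lists, the astrocyte list had 1 gene called higher in both comparisons (Slc1a2, the glial glutamate transporter) and 0 lower, against the sign of its median. Called lower in both were Cspg4 of the precursor list, Cnp of the oligodendrocyte list and Col1a1 and Col1a2 of the meningeal list, and Camk2a and Gad1 were called higher in KOLi against WTLi. The study itself counted stained neurons, astrocytes, microglia and oligodendrocytes in cultures of the same age from both genotypes. It reported no genotype difference in their ratios to all nuclei, and no lower total of nuclei in KO. Those counts were made on coverslips and not on the sequenced cells, and cells of vessels, meninges and ependyma were not among them. The part of these cell types in the Kcn differences was not tested.

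The number of calls depended on single libraries. Leaving out 1 library at a time gave 0 to 13 called Kcn genes in KOVeh against WTVeh and 2 to 16 in KOLi against WTLi. In KOVeh against WTVeh the count was 0 without KOVeh replicate 4, 0 without WTVeh replicate 1, 1 without KOVeh replicate 3, 3 without KOVeh replicate 1, 6 without WTVeh replicate 4 and 7 without KOVeh replicate 2. In KOLi against WTLi it was 2 without WTLi replicate 4, 4 without WTLi replicate 3, 4 without KOLi replicate 1, 6 without KOLi replicate 4 and 8 without KOLi replicate 3. Calls over all genes fell in the same fits. In KOVeh against WTVeh they went from 813 to 73, 47, 71, 240, 308 and 671, in the order given. In KOLi against WTLi they went from 940 to 84, 219, 127, 171 and 320. Over the fits that left out 1 library the family median moved little. It ran from 0.32 to 0.38 in KOVeh against WTVeh and from 0.31 to 0.37 in KOLi against WTLi. Without the replicate number in the model 0 Kcn genes and 0 of all genes were called in either comparison. There 22 and 23 Kcn genes had an unadjusted p under 0.05 by edgeR. The share of all genes with such a p was not computed for that fit, so these counts are not a result about the family. DESeq2 with the replicate number called 25 and 22 Kcn genes. DESeq2 also called more of all genes, 1891 and 2047, against 813 and 940 by edgeR.

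Within each replicate number the family median was above 0. KOVeh minus WTVeh gave a median of 0.37, 0.39, 0.27 and 0.31 in log2 CPM for replicates 1 to 4, and KOLi minus WTLi gave 0.30, 0.33, 0.28 and 0.31. Replicate 2, whose KO libraries had the Shank3 level given above, was as high as the others. Neuron markers had pair medians of 0.33, 0.12, 0.11 and 0.44 in KOVeh minus WTVeh, and interneuron markers 0.31, -0.36, 0.62 and 1.02. Excitatory neuron markers had 0.20, 0.28, -0.004 and 0.69 there, and astrocyte markers -0.57, 0.17, -0.54 and -0.35. In KOLi minus WTLi neuron markers had 0.36, 0.20, 0.12 and 0.46, and interneuron markers 0.55, -0.28, 0.73 and 0.66. Excitatory neuron markers had 0.34, 0.15, 0.23 and 0.73 under lithium, and astrocyte markers -0.48, -0.03, -0.29 and -0.14. Each of the 14 called genes was higher in KO in 4 of 4 replicate pairs in both treatments. The 14 were chosen by tests on these same libraries with the replicate number in the model, so this is no separate support for the calls. Without replicate 2 in any group, 15 Kcn genes were called higher and 1 lower in KOVeh against WTVeh, and 16 higher and 2 lower in KOLi against WTLi. Calls over all genes were also more numerous there, at 1647 against 813 with replicate 2 in KOVeh against WTVeh and 1758 against 940 in KOLi against WTLi.

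**Figure D3:**
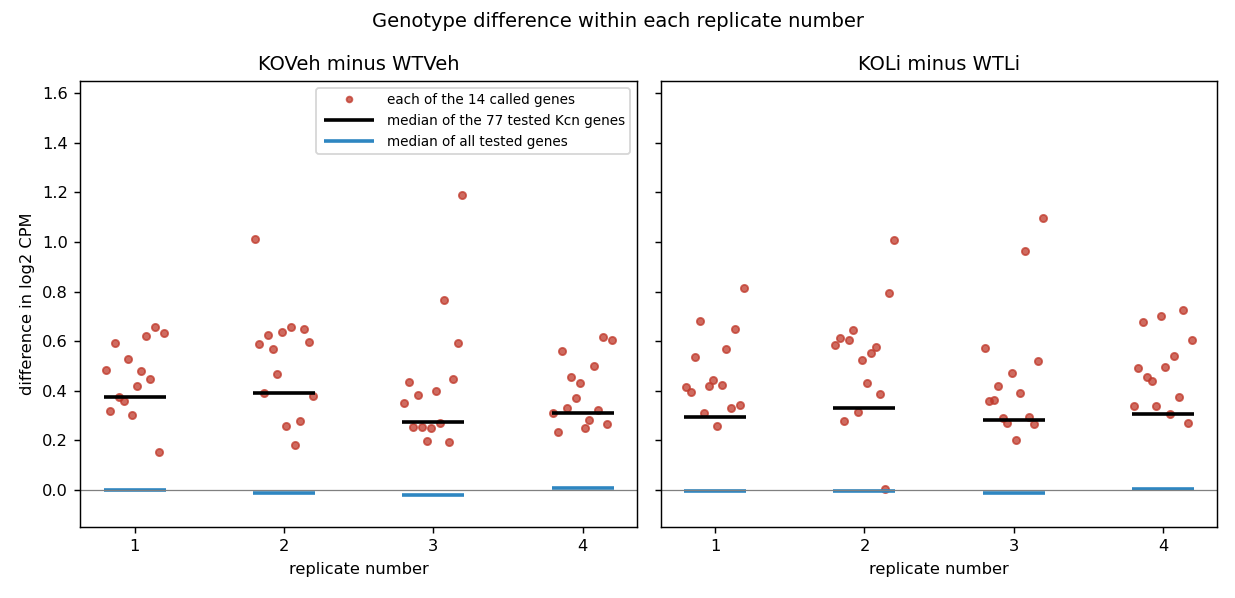
Difference in log2 CPM between KO and WT libraries of the same replicate number (y axis) for replicates 1 to 4 (x axis), vehicle on the left and lithium on the right. Points are the 14 called genes, black bars the median of the 77 tested Kcn genes (0.27 to 0.39) and blue bars the median of all tested genes, which stays near 0. The called genes were chosen from these same libraries.

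Few members separated the groups completely. All KOVeh values exceeded all WTVeh values for 8 members (Kcna2, Kcnc4, Kcnd2, Kcng2, Kcnh1, Kcnj6, Kcnk9 and Kcnn1), 10.4% of the tested members, where 2.45% of all tested genes did so. All KOLi values exceeded all WTLi values for 8 members as well (Kcna2, Kcnc4, Kcnd2, Kcng2, Kcnh1, Kcnj6, Kcnk3 and Kcnk9), where 3.33% of all genes did so. In the other direction Kcnmb1 alone lay lower in every KOVeh library, where 2.86% of all genes did, and 0 members lay lower in every KOLi library, where 2.5% of all genes did.

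The promoters of 4 called genes are shown. These genes had the smallest edgeR p-values in KOVeh against WTVeh among the called genes with 1 RefSeq window each. Windows run from 250 bases before to 50 bases after the start in GRCm38.p6 (RefSeq), 5′ to 3′ on the gene's strand. Capitals mark the GC box (GGGCGG, bound by Sp1-type factors) and TGACG, the core of the cAMP response element TGACGTCA, each also where it lies on the opposite strand. Kcnc4 is at chr3:107458849-107459148 (minus strand), Kcnd2 at chr6:21215096-21215395 (plus strand), Kcnc1 at chr7:46396218-46396517 (plus strand) and Kcna2 at chr3:107101317-107101616 (plus strand).
Kcnc4: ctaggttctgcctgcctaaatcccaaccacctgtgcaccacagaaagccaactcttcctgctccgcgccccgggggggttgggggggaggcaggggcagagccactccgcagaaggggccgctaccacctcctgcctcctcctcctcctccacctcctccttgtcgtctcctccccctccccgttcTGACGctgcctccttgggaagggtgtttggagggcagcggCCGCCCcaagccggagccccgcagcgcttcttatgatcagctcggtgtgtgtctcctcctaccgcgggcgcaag
Kcnd2: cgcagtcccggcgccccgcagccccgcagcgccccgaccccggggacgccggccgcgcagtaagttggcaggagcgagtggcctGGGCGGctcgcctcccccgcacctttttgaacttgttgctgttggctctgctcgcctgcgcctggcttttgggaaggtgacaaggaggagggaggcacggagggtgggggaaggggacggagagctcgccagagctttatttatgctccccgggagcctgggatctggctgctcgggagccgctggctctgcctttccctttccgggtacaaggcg
Kcnc1: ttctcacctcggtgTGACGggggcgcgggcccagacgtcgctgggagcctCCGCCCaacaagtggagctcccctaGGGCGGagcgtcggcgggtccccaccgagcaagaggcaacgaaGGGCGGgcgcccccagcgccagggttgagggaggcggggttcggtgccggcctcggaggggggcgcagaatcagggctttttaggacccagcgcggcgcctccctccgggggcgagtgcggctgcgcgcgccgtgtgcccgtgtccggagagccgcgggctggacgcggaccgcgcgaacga
Kcna2: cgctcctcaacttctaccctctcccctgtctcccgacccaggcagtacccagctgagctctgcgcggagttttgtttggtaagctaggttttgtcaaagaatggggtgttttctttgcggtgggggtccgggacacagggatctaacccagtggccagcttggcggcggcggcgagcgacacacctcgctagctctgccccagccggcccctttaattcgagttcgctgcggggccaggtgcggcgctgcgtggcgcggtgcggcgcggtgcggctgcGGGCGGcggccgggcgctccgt

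Kcnc1 held 3 GC boxes and Kcnc4, Kcnd2 and Kcna2 held 1 each, while TGACG was in the windows of Kcnc1 and Kcnc4. A RefSeq window was matched for 69 of the 94 members and for 10 of the 14 called ones, which had 15 windows. A GC box was in 9 of these 15 windows, in 50.6% of the 79 windows of tested Kcn genes and in 35.7% of all 32851 windows. TGACG, which the longer element contains, was in 4 of the 15, in 19.0% of those of tested Kcn genes and in 20.8% of all, and the whole TGACGTCA was in 0 of the 15, 0% and 1.79%. The TCF motif CTTTGAT (reverse ATCAAAG), which beta-catenin partners bind, was in 0 of the 15 windows, 3.80% of those of tested Kcn genes and 3.73% of all. Windows of the 15 had a median GC content of 64.3%, against 60.3% for tested Kcn genes and 52.7% for all. These matches describe letters in the windows and are not sites shown to be used.

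The Kv1 channels, low-threshold channels of axons and terminals, had 6 tested members of 8, and Kcna2 was called in both comparisons. Kcna2 (Kv1.2, ENSMUSG00000040724, chr3:107101146-107115005) had 112, 109, 119.8 and 106 CPM in KOVeh replicates 1 to 4, against 80.5, 54.1, 93.9 and 85.5 CPM in WTVeh. Every KOVeh library was above every WTVeh library, and WTVeh replicate 2 was the lowest. Kcna2 was 1.45-fold higher in KOVeh than in WTVeh (log2 fold change 0.53, SE 0.10, edgeR adjusted p = 0.00470). Kcna2 had 118, 98.2, 124 and 101 CPM in KOLi, against 88.9, 65.4, 83.3 and 79.6 CPM in WTLi, again without overlap. Kcna2 was 1.39-fold higher in KOLi than in WTLi (log2 fold change 0.48, SE 0.10, edgeR adjusted p = 0.00705). Kcna1 (Kv1.1), the most abundant Kv1 gene, had 146, 105, 135 and 131 CPM in KOVeh, against 81.2, 36.2, 101 and 139.7 CPM in WTVeh, and the groups overlapped because WTVeh replicate 4 was high. For Kcna1 the log2 fold change in KOVeh against WTVeh was 0.65 (SE 0.21, edgeR adjusted p = 0.0438), which was not called. Kcna3 (Kv1.3), a channel known from lymphocytes and microglia, was at 12.5, 12.8, 13.2 and 16.7 CPM in KOVeh, against 8.05, 2.27, 8.76 and 12.998 CPM in WTVeh. Its lowest value, in WTVeh replicate 2, stood well under the rest. For Kcna3 the log2 fold change in KOVeh against WTVeh was 0.89 (SE 0.26, edgeR adjusted p = 0.0317), which was not called.

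Kv2 channels are delayed rectifiers of the soma and proximal dendrites. Kcnb2 (Kv2.2, ENSMUSG00000092083, chr1:15287254-15723750) had 28.4, 19.7, 32.5 and 28.4 CPM in KOVeh, against 22.8, 13.1, 24.0 and 24.1 CPM in WTVeh. In both groups replicate 2 was the lowest library, so that the groups overlapped while each pair differed in the same direction. Kcnb2 was 1.31-fold higher in KOVeh than in WTVeh (log2 fold change 0.39, SE 0.08, edgeR adjusted p = 0.00966). Under lithium Kcnb2 had 27.0, 21.1, 27.5 and 26.6 CPM in KOLi, against 20.5, 13.8, 21.4 and 18.9 CPM in WTLi, with KOLi replicate 2 inside the WTLi range. Kcnb2 was 1.38-fold higher in KOLi than in WTLi (log2 fold change 0.47, SE 0.09, edgeR adjusted p = 0.00455).

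All 4 Kv3 genes, channels of fast-firing neurons, lay above 0 in both comparisons, and Kcnc1 and Kcnc4 were called in both. Kcnc4 (Kv3.4, the inactivating member, ENSMUSG00000027895, chr3:107438303-107459552) had 64.8, 63.1, 77.1 and 69.9 CPM in KOVeh, against 50.04, 40.9, 59.1 and 55.7 CPM in WTVeh. The lowest KOVeh value, in replicate 2, was above the highest WTVeh value, in replicate 3. Kcnc4 was 1.35-fold higher in KOVeh than in WTVeh (log2 fold change 0.43, SE 0.07, edgeR adjusted p = 0.00293). This was the smallest p of the family in both comparisons. Under lithium Kcnc4 had 74.1, 56.3, 74.4 and 66.2 CPM in KOLi, against 46.2, 37.0, 55.6 and 48.3 CPM in WTLi, without overlap. Kcnc4 was 1.45-fold higher in KOLi than in WTLi (log2 fold change 0.54, SE 0.07, edgeR adjusted p = 0.00124). Kcnc1 (Kv3.1, ENSMUSG00000058975, chr7:46396497-46438704) had 108, 88.9, 113 and 137 CPM in KOVeh, against 72.0, 67.8, 94.8 and 93.2 CPM in WTVeh, and only KOVeh replicate 2 fell inside the WTVeh range. Kcnc1 was 1.36-fold higher in KOVeh than in WTVeh (log2 fold change 0.45, SE 0.08, edgeR adjusted p = 0.00346). Its lithium values were 112, 84.3, 109.53 and 132 CPM in KOLi, against 77.4, 69.6, 85.1 and 82.8 CPM in WTLi. Kcnc1 was 1.38-fold higher in KOLi than in WTLi (log2 fold change 0.46, SE 0.08, edgeR adjusted p = 0.00303). KOLi replicate 2 fell just below WTLi replicate 3.

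Kv4 channels carry the subthreshold A-type current of dendrites. Of the 3 genes, Kcnd2 was called in both comparisons and Kcnd1 and Kcnd3 in neither. Kcnd2 (Kv4.2, ENSMUSG00000060882, chr6:21215503-21729805), the main dendritic A-type channel of hippocampal pyramidal cells, had 76.1, 70.5, 77.2 and 73.9 CPM in KOVeh, against 59.4, 47.5, 64.7 and 53.9 CPM in WTVeh. The groups did not overlap, and KOVeh was the tighter of them. Kcnd2 was 1.33-fold higher in KOVeh than in WTVeh (log2 fold change 0.41, SE 0.07, edgeR adjusted p = 0.00296). Under lithium Kcnd2 had 70.3, 68.8, 77.04 and 72.6 CPM in KOLi, against 56.6, 44.0, 63.0 and 53.6 CPM in WTLi, again apart. Kcnd2 was 1.34-fold higher in KOLi than in WTLi (log2 fold change 0.42, SE 0.07, edgeR adjusted p = 0.00269). Kcnd3 (Kv4.3) had 160.2, 143, 132 and 146 CPM in KOVeh, against 135, 106, 126 and 165 CPM in WTVeh, and the groups overlapped widely. For Kcnd3 the log2 fold change in KOVeh against WTVeh was 0.14 (SE 0.10, edgeR adjusted p = 0.381), which was not called.

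The KChIP genes encode calcium-binding proteins that join Kv4 tetramers. Kcnip1 (KChIP1, a marker of some hippocampal interneurons, ENSMUSG00000053519, chr11:33629339-33993152) showed the largest fold change of the 14 called genes in both comparisons. It had 38.05, 29.02, 43.1 and 20.2 CPM in KOVeh, against 24.5, 22.3, 18.9 and 13.3 CPM in WTVeh, and replicate 4 was the lowest library of both groups. Kcnip1 was 1.62-fold higher in KOVeh than in WTVeh (log2 fold change 0.69, SE 0.13, edgeR adjusted p = 0.00455). Kcnip1 had 40.4, 29.2, 44.7 and 19.7 CPM in KOLi, against 22.9, 14.5, 20.9 and 12.9 CPM in WTLi, where KOLi replicate 4 lay inside the WTLi range. Kcnip1 was 1.84-fold higher in KOLi than in WTLi (log2 fold change 0.88, SE 0.13, edgeR adjusted p = 0.00188). Of the 16 fits that left out 1 library, Kcnip1 was called in 16 in KOLi against WTLi and in 11 in KOVeh against WTVeh, and Kcnc4 in 16 and 13. Other calls were kept in fewer fits, down to 3 of 16 for Kcnb2 and 5 of 16 for Kcnj12 in KOVeh against WTVeh and 6 of 16 for Kcnh3 in KOLi against WTLi. Kcnip2, the most abundant KChIP gene, had 141, 144, 151 and 110.18 CPM in KOVeh and 116, 83.1, 121 and 126 CPM in WTVeh, with opposite signs of the pair difference in replicate 4 and the rest. For Kcnip2 the log2 fold change in KOVeh against WTVeh was 0.31 (SE 0.17, edgeR adjusted p = 0.225), which was not called. Among 22 tested partners of potassium channels outside the family, Dpp6, a membrane partner of Kv4, was called higher in KOVeh (log2 fold change 0.28, SE 0.05) and in KOLi (log2 fold change 0.33, SE 0.05), and so was Dlg2, the scaffold PSD-93 (log2 fold change 0.52, SE 0.09 and log2 fold change 0.52, SE 0.09). Adam22, a protein of the Kv1 complex, was called in KOVeh (log2 fold change 0.30, SE 0.06) and had an edgeR adjusted p of 0.0119 in KOLi (log2 fold change 0.26, SE 0.06), and the related Adam23 was called in KOLi (log2 fold change 0.28, SE 0.05) and had an edgeR adjusted p of 0.0156 in KOVeh (log2 fold change 0.22, SE 0.05). The list medians were 0.27 and 0.29, with 3 called higher and 0 lower in each comparison.

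The 9 tested silent Kv genes, whose products form channels only together with Kv2 subunits, had 0 called in KOVeh against WTVeh by edgeR or limma-voom, with 5 at an unadjusted p under 0.05 by either tool, while DESeq2 called Kcng1 and Kcng3. All 9 lay above 0. Their median was 0.37 in KOVeh against WTVeh and 0.52 in KOLi against WTLi. Kcnv1 (Kv8.1), the highest per kb, had 57.0, 52.5, 64.4 and 50.6 CPM in KOVeh, against 47.7, 35.0, 47.1 and 50.7 CPM in WTVeh. The lowest KOVeh library, replicate 4, was just under the highest WTVeh library. For Kcnv1 the log2 fold change in KOVeh against WTVeh was 0.32 (SE 0.11, edgeR adjusted p = 0.0635), which was not called. The largest value was that of Kcng3 (Kv6.3), at a log2 fold change of 1.08 (SE 0.32, edgeR adjusted p = 0.0345) in KOVeh against WTVeh and a level of 0.982 CPM per kb.

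Kv7 channels carry the M current, which muscarinic receptors shut down. All 4 tested members lay above 0 in KOVeh against WTVeh. Kcnq3 (Kv7.3), a subunit of this current, had a log2 fold change of 0.46 (SE 0.14, edgeR adjusted p = 0.0376) in KOVeh against WTVeh and was not called. Kcnq3 lies on chromosome 15, as Shank3 does.

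The EAG group had 8 tested members. Kcnh1 (Kv10.1, ENSMUSG00000058248, chr1:192190774-192510159), a presynaptic channel, had 41.0, 41.5, 47.9 and 41.4 CPM in KOVeh, against 33.3, 26.7, 40.3 and 30.7 CPM in WTVeh. The groups stood apart by a narrow margin, with WTVeh replicate 3 just below KOVeh. Kcnh1 was 1.32-fold higher in KOVeh than in WTVeh (log2 fold change 0.40, SE 0.08, edgeR adjusted p = 0.00595). Under lithium Kcnh1 had 44.3, 41.3, 48.3 and 39.8 CPM in KOLi, against 32.6, 28.7, 34.9 and 24.4 CPM in WTLi, a wider gap. Kcnh1 was 1.45-fold higher in KOLi than in WTLi (log2 fold change 0.53, SE 0.08, edgeR adjusted p = 0.00208). Kcnh3 (Kv12.2, ENSMUSG00000037579, chr15:99224861-99242817), a channel of forebrain pyramidal neurons, was called by edgeR in KOLi against WTLi. It had 74.2, 55.1, 72.0 and 90.8 CPM in KOLi, against 62.1, 40.8, 62.6 and 64.4 CPM in WTLi, and replicate 2 was the lowest of both. Kcnh3 was 1.27-fold higher in KOLi than in WTLi (log2 fold change 0.34, SE 0.08, edgeR adjusted p = 0.00941). Under vehicle Kcnh3 had 76.5, 64.7, 84.7 and 90.9 CPM in KOVeh, against 57.3, 54.1, 64.2 and 76.4 CPM in WTVeh, with overlap. For Kcnh3 the log2 fold change in KOVeh against WTVeh was 0.33 (SE 0.08, edgeR adjusted p = 0.0117), which was not called. Kcnh3 overlaps Mcrs1 on the opposite strand, which had 88.4 CPM against 68.2 CPM for Kcnh3 over the 16 libraries and a log2 fold change of 0.02 (SE 0.06) in KOVeh against WTVeh. The overlap was read from the whole gene spans, and the sources used here do not give the strand setting of the counting. How reads of a shared stretch were counted is therefore not known.

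BK channels open on depolarisation and calcium together. Kcnma1, the pore-forming BK gene (ENSMUSG00000063142, chr14:23289431-24014491), had 259.7, 196, 279.6 and 235 CPM in KOVeh, against 186, 124, 232 and 194 CPM in WTVeh. Replicate 2 was the lowest library of both groups, and WTVeh replicate 3 was nearly as high as KOVeh replicate 4. Kcnma1 was 1.33-fold higher in KOVeh than in WTVeh (log2 fold change 0.42, SE 0.08, edgeR adjusted p = 0.00470). Kcnma1 had 263, 193, 259 and 211 CPM in KOLi, against 197, 131, 197 and 171 CPM in WTLi. Kcnma1 was 1.34-fold higher in KOLi than in WTLi (log2 fold change 0.42, SE 0.08, edgeR adjusted p = 0.00455). KOLi replicate 2 was just under the top of WTLi. Kcnmb1, the smooth muscle beta subunit, had 0.187, 0.404, 0.147 and 0.139 CPM in KOVeh, against 0.824, 0.511, 0.484 and 0.689 CPM in WTVeh, the lowest level per kb of the tested members. Its log2 fold change was -1.62 (SE 0.55, edgeR adjusted p = 0.0557), not called. Kcnmb1 overlaps Kcnip1 on the opposite strand, and Kcnip1 had 56.8 times its CPM and a difference of the opposite sign.

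SK channels, small-conductance channels gated by calcium through calmodulin, had Kcnn1 and Kcnn2 called. Kcnn1 (SK1, ENSMUSG00000002908, chr8:70842049-70863258) had 33.1, 23.8, 36.2 and 22.2 CPM in KOVeh, against 21.5, 21.0, 21.2 and 15.7 CPM in WTVeh. The groups did not overlap, and replicates 1 and 3 were the high ones in KOVeh. Kcnn1 was 1.43-fold higher in KOVeh than in WTVeh (log2 fold change 0.52, SE 0.10, edgeR adjusted p = 0.00716). Kcnn1 had 33.1, 22.1, 35.6 and 21.2 CPM in KOLi, against 22.3, 14.8, 18.2 and 14.6 CPM in WTLi. Kcnn1 was 1.58-fold higher in KOLi than in WTLi (log2 fold change 0.66, SE 0.11, edgeR adjusted p = 0.00279). Here WTLi replicate 1 lay just above KOLi replicates 2 and 4. Kcnn2 (SK2, a postsynaptic channel of spines) had 49.1, 32.5, 47.4 and 50.5 CPM in KOLi, against 39.1, 24.8, 38.7 and 39.0 CPM in WTLi, and replicate 2 was the lowest of both groups. Kcnn2 was 1.27-fold higher in KOLi than in WTLi (log2 fold change 0.35, SE 0.07, edgeR adjusted p = 0.00622). Under vehicle Kcnn2 had 49.2, 36.5, 52.5 and 56.2 CPM in KOVeh, against 36.0, 30.1, 45.9 and 44.9 CPM in WTVeh, just outside the threshold. For Kcnn2 the log2 fold change in KOVeh against WTVeh was 0.31 (SE 0.07, edgeR adjusted p = 0.0103), which was not called. Kcnn3 (SK3) and Kcnn4, the intermediate-conductance channel of blood cells, had log2 fold changes in KOVeh against WTVeh of -0.07 and -1.10 and were not called. Of the sodium-activated channels, Kcnt1 (Slack) and Kcnt2 (Slick) had 0.19 and 0.24 in the same comparison and were not called.

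**Figure D4:**
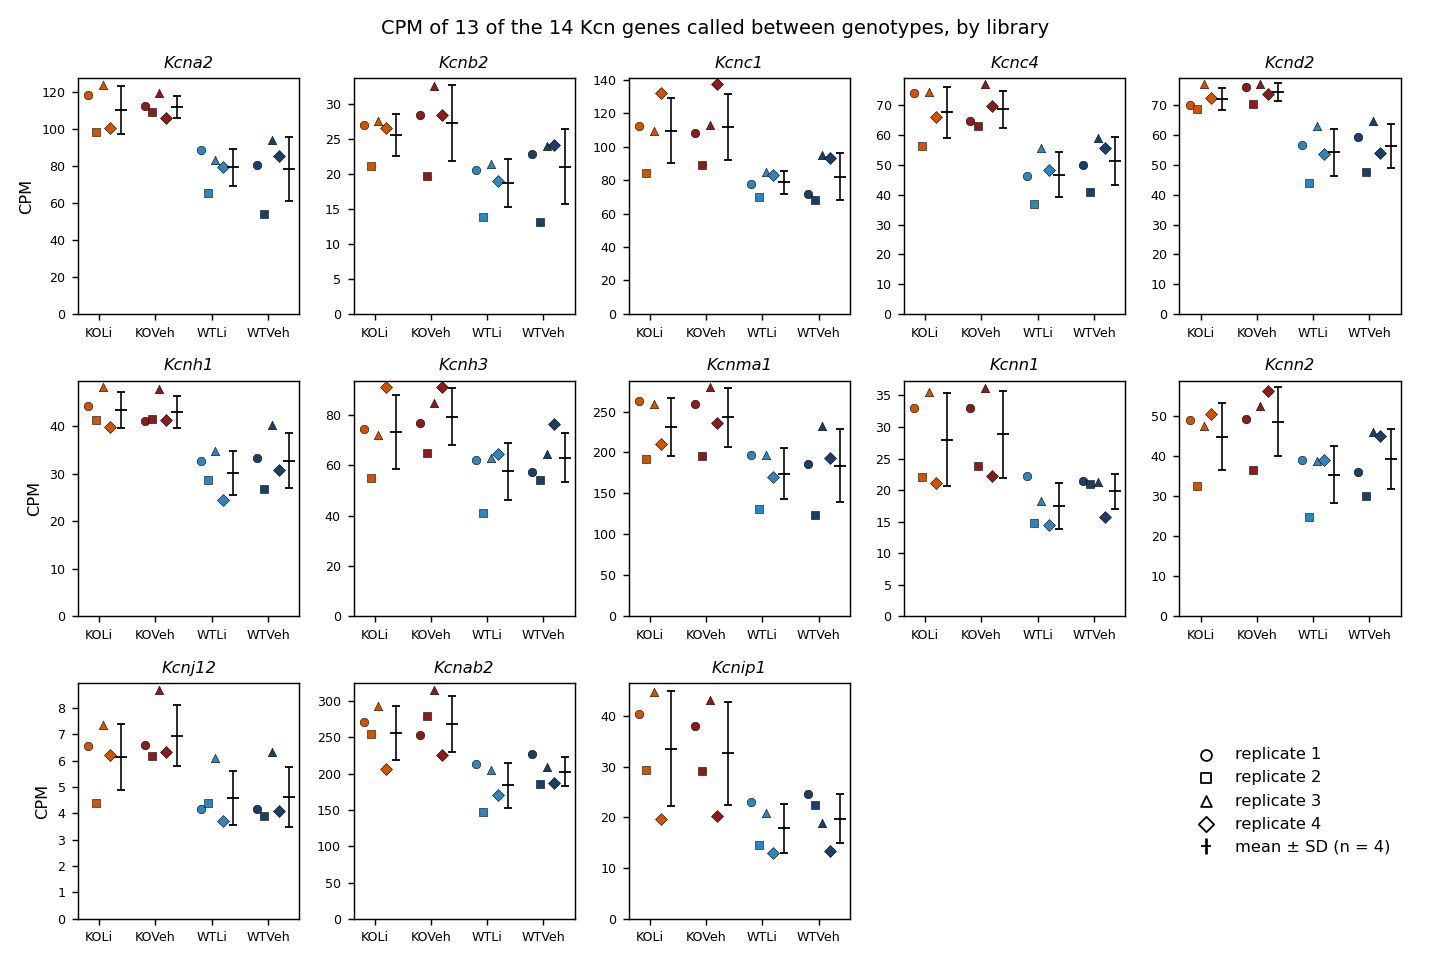
CPM (y axis, from 0) of 13 of the 14 Kcn genes called between genotypes in each library, 1 panel per gene, with KOLi, KOVeh, WTLi and WTVeh on the x axis, marker shape for the replicate number and black bars for mean ± SD (n = 4). For Kcna2, Kcnc4, Kcnd2 and Kcnh1 all KOVeh points lie above all WTVeh points and all KOLi points above all WTLi points.

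Inward rectifiers held both the most abundant gene of the family and a called one at low level. Kcnj12 (Kir2.2, ENSMUSG00000042529, chr11:61022564-61071131) had 6.61, 6.15, 8.67 and 6.34 CPM in KOVeh, against 4.16, 3.90, 6.34 and 4.10 CPM in WTVeh, and WTVeh replicate 3 lay inside the KOVeh range. Kcnj12 was 1.51-fold higher in KOVeh than in WTVeh (log2 fold change 0.60, SE 0.13, edgeR adjusted p = 0.00836). Kcnj12 had 6.54, 4.38, 7.33 and 6.22 CPM in KOLi, against 4.15, 4.37, 6.09 and 3.73 CPM in WTLi, with almost no difference in replicate 2. For Kcnj12 the log2 fold change in KOLi against WTLi was 0.43 (SE 0.13, edgeR adjusted p = 0.0340), which was not called. Kcnj10 had 178, 319.8, 169.9 and 144 CPM in KOVeh, against 241, 273, 201 and 318 CPM in WTVeh. KOVeh replicate 2 was the highest library of either group, and the other KOVeh libraries were below all WTVeh libraries. For Kcnj10 the log2 fold change in KOVeh against WTVeh was -0.40 (SE 0.19, edgeR adjusted p = 0.156), which was not called. The GIRK subunits, which G proteins open, had log2 fold changes in KOVeh against WTVeh of 0.37 (Kcnj3, edgeR adjusted p = 0.0169), 0.59 (Kcnj6, 0.0549) and 0.22 (Kcnj9, 0.380).

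K2P leak channels were the 1 large subfamily with a median near 0, at -0.01 in KOVeh against WTVeh and -0.05 in KOLi against WTLi, with 5 of 10 tested members above 0 in each. edgeR and limma-voom called 0 of them in either comparison, with 3 at an unadjusted p under 0.05 in each (Kcnk3 and Kcnk9 higher, Kcnk2 lower), and DESeq2 called Kcnk3 and Kcnk9 higher in both and Kcnk2 lower in KOLi. Kcnk1 (TWIK1), the highest per kb, had 82.5, 88.8, 80.4 and 76.1 CPM in KOVeh, against 84.2, 81.1, 71.0 and 108 CPM in WTVeh, with overlap. For Kcnk1 the log2 fold change in KOVeh against WTVeh was -0.05 (SE 0.13, edgeR adjusted p = 0.802), which was not called. Kcnk9 (TASK3), an acid-sensitive channel on chromosome 15, had 81.1, 86.3, 117 and 125 CPM in KOVeh, against 73.7, 63.7, 68.5 and 54.2 CPM in WTVeh, without overlap. For Kcnk9 the log2 fold change in KOVeh against WTVeh was 0.66 (SE 0.16, edgeR adjusted p = 0.0144), which was not called. Kcnk2 (TREK1), a mechanosensitive channel of neurons and astrocytes, had 42.1, 84.4, 37.8 and 38.7 CPM in KOVeh, against 74.5, 81.9, 49.7 and 106 CPM in WTVeh. KOVeh replicate 2 was just above its WTVeh pair and the other KOVeh libraries were below all WTVeh libraries. For Kcnk2 the log2 fold change in KOVeh against WTVeh was -0.66 (SE 0.23, edgeR adjusted p = 0.0579), which was not called. Kcnk9 and Kcnk2 are named here after their values were seen.

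The Kv beta subunits bind Kv1 tetramers in the cytoplasm. Kcnab2 (ENSMUSG00000028931, chr4:152390742-152477871) had 271, 255, 293 and 206 CPM in KOLi, against 214, 147, 205 and 171 CPM in WTLi, and KOLi replicate 4 lay inside the WTLi range. Kcnab2 was 1.39-fold higher in KOLi than in WTLi (log2 fold change 0.48, SE 0.09, edgeR adjusted p = 0.00609). Kcnab2 had 253, 279.6, 316 and 226 CPM in KOVeh, against 228, 185, 209 and 188 CPM in WTVeh. For Kcnab2 the log2 fold change in KOVeh against WTVeh was 0.41 (SE 0.09, edgeR adjusted p = 0.0127), which was not called. WTVeh replicate 1 was just above KOVeh replicate 4. Kcnab1 and Kcnab3 had 0.15 and 0.33 in KOVeh against WTVeh and were not called.

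Kcne1l (KCNE5), a single-span subunit encoded on chromosome X, had the opposite sign to most of the family. It had 10.4, 35.9, 5.53 and 15.03 CPM in KOVeh, against 30.7, 39.7, 10.49 and 59.3 CPM in WTVeh, and 8.87, 31.8, 11.8 and 18.4 CPM in KOLi, against 32.4, 53.5, 17.9 and 82.3 CPM in WTLi. KO was the lower library in 4 of 4 pairs of both treatments, but levels differed so much between replicate numbers that the groups overlapped. For Kcne1l the log2 fold change in KOVeh against WTVeh was -1.14 (SE 0.32, edgeR adjusted p = 0.0280), which was not called. For Kcne1l the log2 fold change in KOLi against WTLi was -1.32 (SE 0.32, edgeR adjusted p = 0.0151), which was not called. It was called lower in KOLi against WTLi by DESeq2 and by the fit that treats the culture as a random effect, and in both comparisons by edgeR without replicate 2 in any group. Kcnrg, a protein with a Kv-type assembly domain and no pore, was under 1 CPM in every library, and its log2 fold change of -0.75 in KOVeh against WTVeh had an SE of 0.36. Kcnrg overlaps Dleu2, which had 14.4 times its CPM.

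Other genes that handle potassium were called in both directions. Of 14 tested pumps and cotransporters, Atp1b1 (a sodium pump subunit, log2 fold change 0.32, SE 0.06) and Slc12a5 (the neuronal potassium-chloride cotransporter KCC2, log2 fold change 0.34, SE 0.05) were called higher in KOVeh against WTVeh. Atp1b3 (log2 fold change -0.34, SE 0.06) and Slc12a4 (the widely expressed KCC1, log2 fold change -0.50, SE 0.09) were called lower. In KOLi against WTLi Atp1b1 and Slc12a5 were among those called higher, Slc12a4 and Slc12a7 were called lower, and the list medians were 0.09 and 0.05. The 4 HCN genes, which encode the hyperpolarisation-activated cation channels, had 0 called by edgeR or limma-voom in KOVeh against WTVeh, with 3 at an unadjusted p under 0.05 by either tool, and DESeq2 called 1. All 4 lay above 0 with a median of 0.30.

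Shank3 lies on chromosome 15, as do 6 tested Kcn genes. Kcnq3, Kcnj4, Kcnk9, Kcnv1 and Kcns2 were not called by edgeR in either comparison, with log2 fold changes of 0.32 to 0.66 in KOVeh against WTVeh. Kcnh3, 9.73 Mb from Shank3 and the nearest of the 6, was called by edgeR in KOLi against WTLi. DESeq2 called Kcnh3, Kcnq3 and Kcnk9 in KOVeh against WTVeh and Kcnh3 and Kcnk9 in KOLi against WTLi, and Kcns2 was called by edgeR in both comparisons without replicate 2. The other 13 called genes lie on other chromosomes.

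Lithium was compared with vehicle within each genotype. No Kcn gene was called in KOLi against KOVeh or in WTLi against WTVeh by edgeR, DESeq2 or limma-voom, as no gene of all 14783 was called by edgeR. At an unadjusted p under 0.05 edgeR gave 1 Kcn gene in each comparison, and DESeq2 gave 1 in KOLi against KOVeh and 0 in WTLi against WTVeh. The family median was -0.07 in KOLi against KOVeh, where 53 of 77 lay below 0, and -0.06 in WTLi against WTVeh, where 52 did, and the median of all genes was 0.00 in both. By replicate number the medians were -0.04, -0.09, -0.05 and -0.07 in KO and 0.03, -0.11, -0.09 and -0.10 in WT, so WT replicate 1 lay on the other side of 0. Without KOVeh replicate 2 the KO median was -0.01, and the WT median was -0.02 without WTLi replicate 2, -0.04 without WTLi replicate 4, -0.04 without WTVeh replicate 3 and -0.02 without WTVeh replicate 4.

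Of the single genes, Kcnt2 had the smallest p in KOLi against KOVeh, with 17.0, 10.9, 15.8 and 9.45 CPM in KOLi, against 21.6, 11.9, 19.4 and 11.4 CPM in KOVeh. It was lower under lithium in 4 of 4 pairs, but the groups overlapped. Its log2 fold change was -0.27 (SE 0.12, edgeR adjusted p = 0.99995). Kcnn2 had the smallest p in WTLi against WTVeh, with 39.1, 24.8, 38.7 and 39.0 CPM in WTLi, against 36.0, 30.1, 45.9 and 44.9 CPM in WTVeh, a log2 fold change of -0.15 (SE 0.07, edgeR adjusted p = 0.999) and 3 of 4 pairs lower. Next in WT came Kcns1 (Kv9.1, log2 fold change -0.63, SE 0.30) and Kcnc4 (-0.14, SE 0.07), and in KO Kcnn2 was again among the 3 smallest p-values (-0.12, SE 0.07). For the 14 genes called between genotypes, lithium log2 fold changes ran from -0.18 to 0.03 in KO and from -0.19 to 0.03 in WT. Their 95% confidence intervals all lay between -0.46 and 0.30 in KO and between -0.43 and 0.27 in WT. The 14 genes were chosen for genotype differences in these same libraries, so their lithium values are not independent of that choice.

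**Figure D5:**
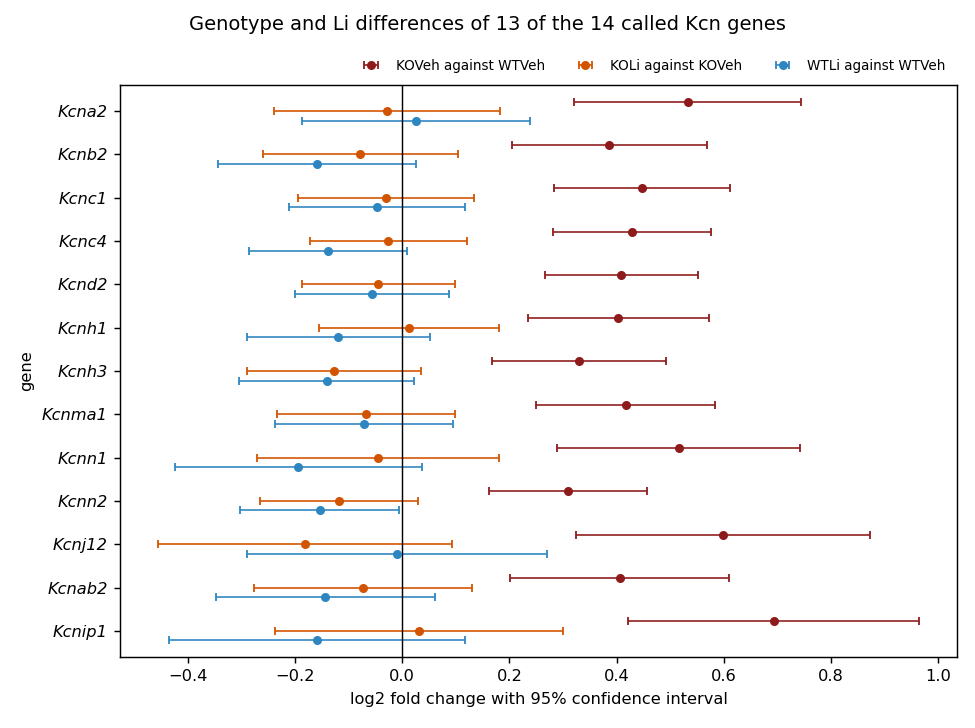
Log2 fold changes with 95% confidence intervals (x axis) of 13 of the 14 genes called between genotypes (y axis), for KOVeh against WTVeh (dark red), KOLi against KOVeh (orange) and WTLi against WTVeh (blue). Genotype differences of 0.31 to 0.69 lie right of the lithium differences of -0.19 to 0.03, and these comparisons share libraries. The genes were chosen for their genotype difference, so this order was in part fixed by the choice.

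The lithium response did not differ detectably between genotypes. For the interaction (KOLi against KOVeh, minus WTLi against WTVeh) edgeR called 0 Kcn genes, with 0 at an unadjusted p under 0.05, and DESeq2 also gave 0 and 0. The smallest p belonged to Kcns1, at a log2 difference of 0.71 (SE 0.41, edgeR adjusted p = 0.99989). It had 1.64, 1.38, 2.40 and 3.70 CPM in KOLi and 1.499, 1.71, 2.301 and 3.15 CPM in KOVeh, against 1.27, 1.27, 1.49 and 1.17 CPM in WTLi and 1.80, 2.65, 1.94 and 1.61 CPM in WTVeh, a gene at few counts. Every WTLi value was below every WTVeh and every KOVeh value, and KOLi overlapped the other groups. Kcnmb2, a BK beta subunit that inactivates the channel, followed at 0.42 (SE 0.29), with 5.22, 2.83, 5.73 and 3.59 CPM in KOLi and 3.84, 3.55, 5.19 and 3.60 CPM in KOVeh, against 2.29, 2.60, 4.04 and 1.56 CPM in WTLi and 4.16, 3.16, 3.55 and 2.15 CPM in WTVeh, with overlap. Kcna3 came next at -0.52 (SE 0.37), with 12.2, 10.3, 14.2 and 13.5 CPM in KOLi and 9.22, 7.03, 8.91 and 14.9 CPM in WTLi beside the vehicle values above. Over the 14 called genes the interaction ran from -0.17 to 0.19 on the log2 scale with SEs of 0.09 to 0.18, and its 95% confidence intervals reached from -0.56 to 0.57.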

How the data were processed

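RNA of primary hippocampal cells was sequenced in 16 libraries, 4 each of KOLi, KOVeh, WTLi and WTVeh. The authors aligned reads with HISAT2 2.0.5 to GRCm38.p6 and counted them per gene with featureCounts 1.5.0-p3, per the submitters' processing notes, and deposited whole read counts. The strand setting of the counting and the annotation release are not given there. The sample labels run from DIV 14 to DIV 29 in steps of 1, whereas the study's methods give DIV 14 for all, which was used here. Groups and replicate numbers came from the sample titles. The labels place replicates 1 to 3 in sequencing batch 1 and replicate 4 in batch 2.

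Genes of the biotypes kept by the study (33134) were filtered with filterByExpr (minimum count 15, minimum proportion 0.25), which left 14783, and scaled by TMM. The study also dropped genes without an Entrez ID, which was not repeated here. edgeR 4.0.16 (R 4.3.3) fitted a quasi-likelihood model with group and replicate number to all libraries, since the study used group and 4 experimental batches. Benjamini-Hochberg adjustment ran over all tested genes, and calls needed an adjusted p under 0.01 and a fold above 1.2. CPM values are counts scaled by the TMM library size. Pair differences are in log2 CPM with a prior count of 2. Library totals of 16123067 to 35188300 counts set the counting precision. The edgeR p-values take the 16 libraries as independent units, given group and replicate number. KOLi and KOVeh, as WTLi and WTVeh, may share a preparation, so these p-values do not describe the spread between preparations alone. In the limma-voom fit with a random effect per culture, the libraries of a culture had a correlation of 0.51. That fit called 8 Kcn genes in KOVeh against WTVeh and 9 in KOLi against WTLi.

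Same-numbered libraries deviated together from their group means, with correlations of -0.04 to 0.89, above 0.1 in 23 of 24 pairs, and 20 of 24 correlated best with their own number. The study names 4 experimental batches, and taking the replicate number as the batch is an assumption, since the labels do not state it.

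Alternatives were no replicate block, DESeq2 1.42.0, limma-voom (limma 3.58.1), a limma-voom fit with a random effect per culture, RLE or no scaling factors, no filter, all biotypes, fewer libraries and an adjusted p under 0.05. The genes described by library were the called ones, the highest per kb of each subfamily and the 3 with the smallest p in each lithium comparison and the interaction. Other Kcn genes (among them Kcng3, Kcnj6, Kcnk2, Kcnk3, Kcnk9, Kcnmb1, Kcnn3, Kcnn4 and Kcnq3) were named after their values were seen. Members and lists were chosen with earlier results of these data known. Promoters came from RefSeq windows of GRCm38.p6, matched by symbol for 69 of the 94 genes. All count columns of the tables were used. Some genes of the family and of the lists are not reported here by name.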

Additional observations from a re-analysis of the deposited data

Results flagged for a closer look

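For the 28 Kcn genes described by library, each group of 4 was examined for a library standing apart by Dixon's test at the 95% level (gap to the nearest library over the group's range). This was so in 12 of 112 groups, and 7 of the 12 were replicate 2 libraries. Chance gives about 1 in 20 for a single group. The genes share the same libraries, so the 112 groups are not independent and no excess over chance can be read from the 12.

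In KOLi, replicate 2 had 354 CPM of Kcnj10, the astrocyte rectifier, against 166 to 174 CPM in the other KOLi libraries. The same library had 21.1 CPM of Kcnb2, against 26.6 to 27.5 CPM in the others, and 32.5 CPM of Kcnn2, against 47.4 to 50.5 CPM. In WTLi, replicate 2 was low for Kcnip2 at 58.7 CPM, against 115 to 119 CPM, for Kcnh3 at 40.8 CPM, against 62.1 to 64.4 CPM, and for Kcnn2 at 24.8 CPM, against 38.7 to 39.1 CPM. WTVeh replicate 2 had 13.1 CPM of Kcnb2, against 22.8 to 24.1 CPM. Replicate 2 thus held the low value of neuronal channels in KOLi, WTLi and WTVeh and the high value of Kcnj10 in KOLi.

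Of the other 5, KOVeh replicate 4 had 16.7 CPM of Kcna3, against 12.5 to 13.2 CPM, and KOVeh replicate 3 had 47.9 CPM of Kcnh1, against 41.0 to 41.5 CPM. WTVeh replicate 3 had 6.34 CPM of Kcnj12, against 3.90 to 4.16 CPM. WTVeh replicate 4 had 15.7 CPM of Kcnn1, against 21.0 to 21.5 CPM, and 0.459 CPM of Kcnrg, against 0.848 to 0.882 CPM. The cause of these values was not tested.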

How the results depend on the processing

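Without the replicate block 0 Kcn genes were called in KOVeh against WTVeh (11 with the block) and 0 in KOLi against WTLi (13 with the block). No gene of all those tested was called without the block either. DESeq2 gave 25 and 22 Kcn genes (1891 and 2047 of all genes, against 813 and 940 by edgeR). An adjusted p under 0.05 gave 26 and 24 (2400 and 2722 of all genes). Sequencing batch 1 alone gave 0 and 0 (15 and 7 of all genes). The 2 groups fitted alone gave 0 and 0 (0 and 0 of all genes). Leaving out 1 library gave 0 to 13 and 2 to 16 (47 to 1343 and 84 to 1459 of all genes). Fewer libraries enter the last 3 settings, and the cause of the other changes was not tested. RLE factors, no TMM factors, no filter, all biotypes, limma-voom, the culture as a random effect and no replicate 2 gave 8 to 16 and 9 to 18. KOLi against KOVeh, WTLi against WTVeh and the interaction gave 0 in every setting run, and the interaction could not be fitted to 2 groups alone. The family median kept its sign in both genotype comparisons, at 0.29 to 0.38 in KOVeh against WTVeh and 0.27 to 0.37 in KOLi against WTLi. Of the values of single genes, 3637 kept their side of the threshold, 215 lost a call, 38 gained one and 0 changed sign as a call. These values pool the genotype comparisons with the lithium comparisons and the interaction. No Kcn gene was called in the lithium comparisons or the interaction in any setting, so their values are all among the 3637. Only the 11 and 13 calls of the genotype comparisons could be lost, so the 3637 are no measure of how stable those calls were. Of the 94 members, 17 had too few reads to test.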

Other observations

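Besides the 94 protein-coding genes, 5 antisense transcripts of the tables carry a Kcn name. Kcnq1ot1, the long imprinted transcript antisense to Kcnq1, was the highest of them. It had 6.48, 4.67, 6.24 and 6.25 CPM in KOLi, 7.404, 3.37, 5.09 and 8.45 CPM in KOVeh, 4.98, 5.54, 5.87 and 7.87 CPM in WTLi, and 4.91, 5.66, 6.82 and 8.12 CPM in WTVeh. The groups overlapped, and its host gene Kcnq1 was among the members with too few reads to test. Kcnmb4os2 and Kcnd3os averaged 3.31 and 2.34 CPM over the 16 libraries, and KOVeh and WTVeh overlapped for both. Kcnab3os and Kcnmb4os1 had 20 and 11 counts in all libraries together.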
